A study of Capra hircus with 24 samples.

Results

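Antimicrobial protein genes of goat milk and blood were followed over 3 RNA sources. The set holds 10 cattle RefSeq transcripts: lactoferrin (LTF, NM_180998), lactoperoxidase (LPO, NM_173933), the S100 proteins S100A8 (NM_001113725), S100A9 (NM_001046328) and S100A12 (NM_174651), the cathelicidins CATHL1 (NM_174825), CATHL2 (NM_174826) and CATHL4 (NM_174827), the lingual antimicrobial peptide LAP (NM_203435) and beta-defensin 1 (DEFB1, NM_175703). Members were taken by transcript accession, as every non-control probe annotated with a transcript of the set. This gave 20 of the 43653 probes on the array, for 9 of the 10 transcripts, since no probe carries the LAP accession. Of these, 14 probes of 7 genes were tested, among 27411 tested probes in all, because their Cy5 signal cleared the scanner software's background test on each of the 4 arrays of 1 or more groups.

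The RNA came from 8 healthy female goats in lactation 3, with no treatment. PWI, the Polish White Improved breed, and PFI, the Polish Fawn Improved breed, gave 4 goats each. Each goat gave MSC (milk somatic cells, which are leukocytes and epithelial cells found in milk), MFG (milk fat globules, secreted lipid droplets that can enclose cytoplasm of the secreting cell) and PNCB (peripheral nuclear blood cells, left after lysis of erythrocytes). Source and breed make 6 groups with 4 arrays in each. On all 24 arrays the sample carried Cy5 and a common reference carried Cy3, with no dye swap. The reference was pooled RNA of the same kind of blood cells from 7 other goats in lactation 4, 4 PWI and 3 PFI, taken after lactation had ended. The isolation kit for blood RNA was not the one used for both kinds of milk RNA, so a comparison of milk with blood is also one of kits, and the effects cannot be told apart. Markers of the labelled cell types were not checked, since probes carry cattle accessions that matched no entry of the goat gene table used here. Unless another measure is named, values below are log2 ratios of sample over reference, normalized within each array. A ratio of 0 thus stands for the level of the blood pool relative to the other probes of the array. A probe dim in both channels can also read near 0. The ratio of 1 probe says nothing of its level against another probe.

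These genes belong to innate defence. Lactoferrin, an iron-binding glycoprotein, and lactoperoxidase, a heme peroxidase that oxidises thiocyanate, are secreted into milk by mammary epithelium. Lactoferrin is also stored in neutrophil granules. S100A8 and S100A9 form calprotectin, a metal-binding complex abundant in the cytosol of neutrophils and monocytes, and S100A12 is a related granulocyte protein. Cathelicidins are antimicrobial peptides kept as precursors in neutrophil granules of ruminants, and their transcripts are made mainly while these cells mature in bone marrow. Beta-defensins such as DEFB1 and LAP are small peptides known mostly from epithelia.

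Across the arrays the share of probes with Cy5 well above background was 51.2% to 60.9% in MSC, 57.5% to 65.6% in PNCB and 44.1% to 84.6% in MFG, where PWI goats 2 and 4 had the highest shares. The measured spike-in ratios of each array were regressed on their medians over all arrays. The slope lay between 0.86 and 0.99 on MSC arrays, between 0.70 and 0.97 on PNCB arrays and between 0.78 and 1.27 on MFG arrays. Such a slope compares the arrays with each other and not with known ratios. The PNCB arrays of PWI goats 3 and 4 had few probes with Cy3 well above background, 20.4% and 19.9%, against 41.5% to 88.0% on the other arrays. Each group lay on its own slide, and the MFG slides were scanned on another day than the MSC and PNCB slides, so what is due to MFG and to that scan cannot be told apart. The array was designed for cattle, so a probe can read low where goat sequence differs.

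The members fell into 3 patterns over the sources. LTF and LPO were higher in both milk sources than in blood. The S100 genes did not pass the test between MSC and PNCB and were far lower in MFG. CATHL2 was lower in both milk sources than in blood, as was 1 of the 2 CATHL1 probes. Between MSC and PNCB, 9 of the 14 tested member probes passed the test (limma, Benjamini-Hochberg adjusted p under 0.05 over all tested probes), 5 higher and 4 lower in MSC. Over all 27407 probes with a value in that comparison, 49.6% passed, 22.5% higher and 27.1% lower. Between MFG and PNCB, 13 members passed, 5 higher and 8 lower in MFG, where 63.9% of all probes passed, 25.5% higher and 38.4% lower. Between MFG and MSC, 6 members passed, 1 higher and 5 lower in MFG, beside 34.8% of all probes, 12.6% higher and 22.2% lower. The member median was -0.16, -1.52 and -0.21 in these comparisons, beside -0.04, -0.13 and -0.02 over all tested probes. Both comparisons with blood use the same 8 PNCB arrays. In bulk RNA such as this, fewer cells of a type and less RNA per cell cannot be told apart.

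**Figure D1:**
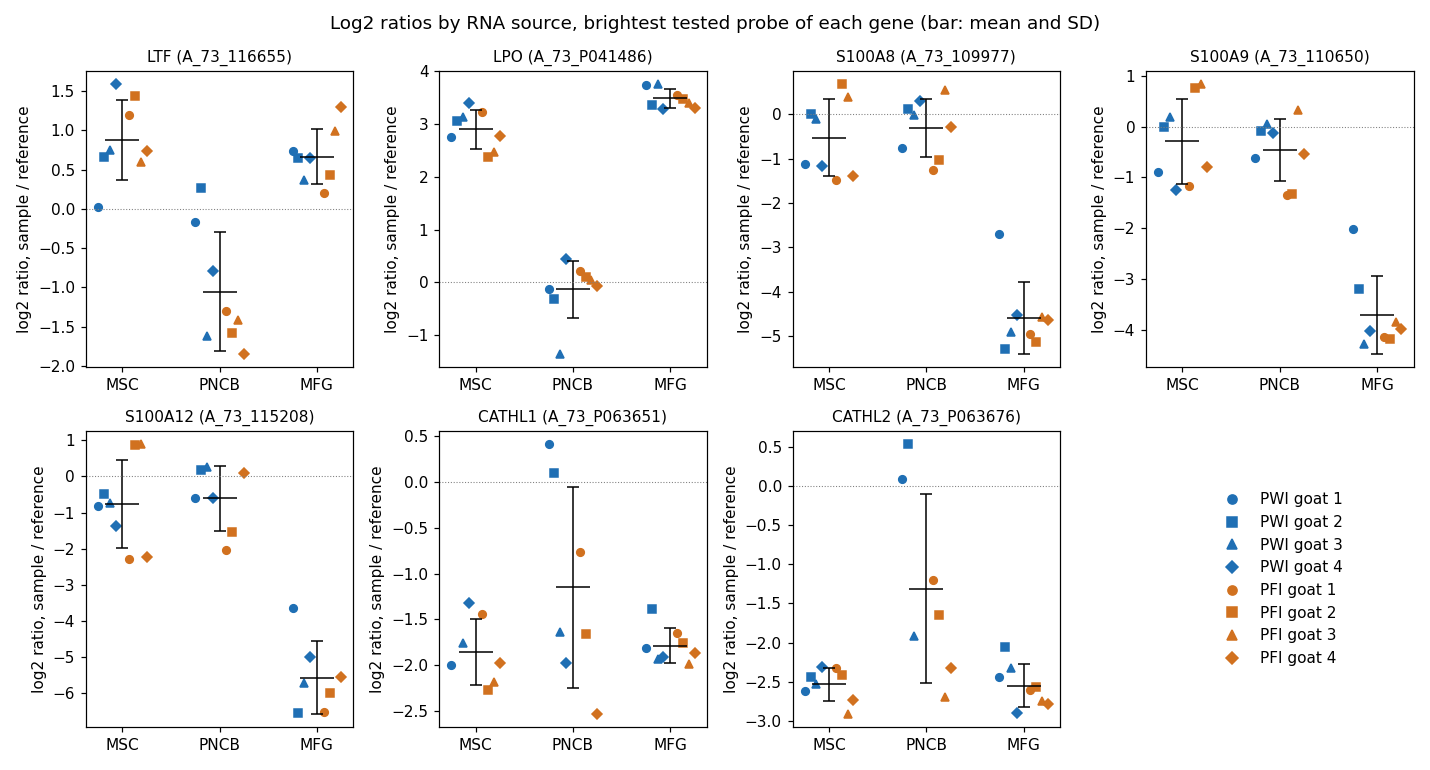
Log2 ratio of sample over blood reference (y axis) in MSC, PNCB and MFG (x axis) for the brightest tested probe of each of the 7 genes, with 1 point per goat, colour for breed and bars for mean and SD. LTF and LPO sit higher in both milk sources, the S100 genes drop in MFG, and the cathelicidins spread widely in PNCB, with PWI goats 1 and 2 on top.

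LPO was the member most raised in milk over blood. Its single probe (A_73_P041486) ranged from 2.37 to 3.40 in MSC with a median of 2.92, from -1.35 to 0.44 in PNCB with a median near 0 (-0.0047), and from 3.29 to 3.76 in MFG with a median of 3.44. The lowest milk array thus stood above the highest blood array by a wide margin, and all 8 goats had more LPO in milk. The MSC mean was 2.90 ± 0.37, the PNCB mean -0.13 ± 0.54 and the MFG mean 3.49 ± 0.19 (SD over 8 goats). In PNCB both channels were dim at this probe. Its log2 Cy5 lay between 6.94 and 7.51, and its reference signal was well above background on 6 of 8 arrays. Relative to PNCB, LPO was 8.19-fold higher in MSC, a log2 difference of 3.03 (SE 0.18, limma adjusted p = 3.7e-12). It was 12.3-fold higher in MFG than in PNCB (3.62, SE 0.18, limma adjusted p = 8.1e-14).

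LPO was also the only member that passed as higher in MFG than in MSC, with a log2 difference of 0.58 (SE 0.18, limma adjusted p = 0.0142) and the same direction in 7 of 8 goats. The groups overlapped through the MSC array of PWI goat 4, whose 3.40 lay above the lowest MFG value of 3.29. This call is not stable. It was lost without PWI goat 1 (0.49, adjusted p = 0.0710), without PFI goat 2 (0.52, 0.0690) or without PFI goat 3 (0.55, 0.0552), and within PWI goats alone (0.45, 0.443). With median centring of each array in place of loess, LPO turned to -0.63 (limma adjusted p = 0.00422). That centring moved the median of all tested probes from -0.02 to -0.61, so relative to this median LPO stood at -0.02.

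Although each array carried the same reference RNA in Cy3, this channel was not constant at LPO. In Cy3 alone 2.19% of all tested probes passed for MSC against PNCB, with 3 of the 14 members. For MFG against PNCB 38.2% passed, with 9 members, and for MFG against MSC 39.7%, with 7. By size of the Cy3 difference LPO ranked 32 from the top for MSC against PNCB and 39 for MFG against PNCB. The log2 Cy3 signal of LPO, normalised over the arrays, was 7.11 ± 0.46 on PNCB, 8.71 ± 0.61 on MSC and 8.88 ± 0.38 on MFG arrays (SD over 8 arrays). Cy3 was thus 3.02-fold brighter on MSC than on PNCB arrays and 3.42-fold brighter on MFG than on PNCB arrays (limma adjusted p = 0.000175 and 2.1e-06). Within MSC it followed the sample channel, from 7.52 where Cy5 was 10.3 (PFI goat 2) to 9.52 where Cy5 was 13.4 (PFI goat 1). The ratio therefore understates the gap in the sample channel. In Cy5 alone LPO was 37.9-fold higher in MSC and 73.2-fold higher in MFG than in PNCB. The part of signal crossing between channels was not tested.

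**Figure D2:**
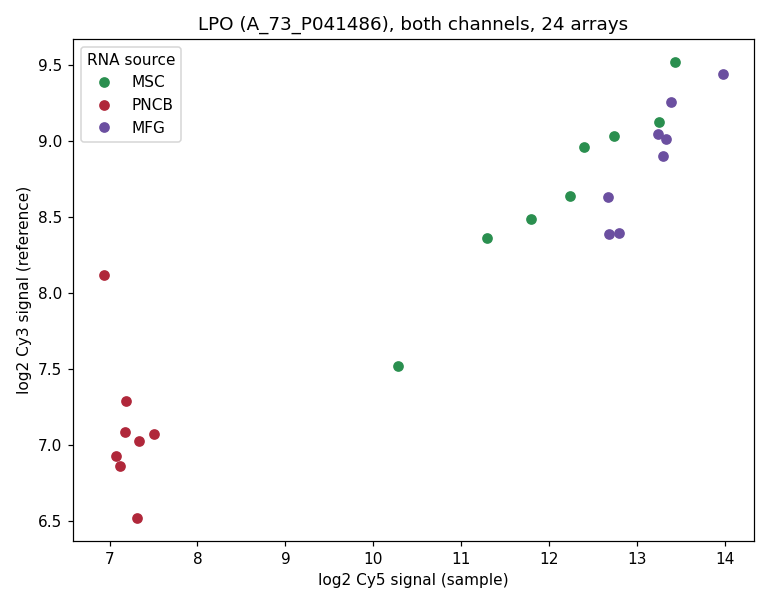
Log2 Cy3 signal (reference, y axis) against log2 Cy5 signal (sample, x axis) of the LPO probe on 24 arrays, with 1 point per array and colour for RNA source. Arrays bright in the sample channel are also brighter in the reference channel, although the reference RNA was the same.

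Lactoferrin was higher in both milk sources than in blood, at its brightest probe in all 8 goats. This probe (A_73_116655) ranged from 0.02 to 1.59 in MSC with a median of 0.74, from -1.84 to 0.27 in PNCB with a median of -1.36, and from 0.20 to 1.29 in MFG with a median of 0.65. The groups overlapped through single arrays. The PNCB array of PWI goat 2 (0.27) lay above the lowest MSC array, that of PWI goat 1 (0.02). It also lay above the lowest MFG array, that of PFI goat 1 (0.20). The next highest PNCB array, that of PWI goat 1 (-0.17), lay below all milk arrays. Relative to PNCB, LTF was 3.80-fold higher in MSC, a difference of 1.93 (SE 0.24, limma adjusted p = 4.6e-07), and 3.29-fold higher in MFG than in PNCB (1.72, SE 0.24, limma adjusted p = 1.2e-06). All 4 tested LTF probes passed the test in both comparisons. The others were 3.66-fold, 1.68-fold and 4.69-fold higher in MSC (A_73_P048381, A_73_P379426 and A_73_P467448) and 3.99-fold, 1.82-fold and 4.60-fold higher in MFG than in PNCB, so the size differed between probes while the direction of the mean did not. The smallest differences came from A_73_P379426, which was lower in MFG than in PNCB in 2 of 7 goats and whose reference signal was well above background on 1 of 8 PNCB arrays.

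Between MFG and MSC no LTF probe passed the test. The brightest differed by -0.21 with a 95% interval from -0.69 to 0.28 (limma adjusted p = 0.544). With median centring the same probe was lower in MFG by -1.33 (limma adjusted p = 0.000107), and its gap between MFG and PNCB shrank to 0.41 (adjusted p = 0.149), or 1.23 above the median of all probes, which that centring moved from -0.13 to -0.82. A_73_P048381 and A_73_P467448 lost the call against PNCB there as well (0.51 and 0.61, limma adjusted p = 0.0604 and 0.0517). Only A_73_P379426 kept it (0.69, limma adjusted p = 0.00193). The remaining LTF probe (A_73_P107516) was well above background on 0 arrays of MSC and PNCB and on 2 MFG arrays, and was not tested.

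The calprotectin genes S100A8 and S100A9 overlapped between MSC and PNCB and were far lower in MFG. S100A8 (A_73_109977) ranged from -1.49 to 0.68 in MSC with a median of -0.61, from -1.26 to 0.55 in PNCB with a median of -0.15, and from -5.28 to -2.70 in MFG with a median of -4.76. S100A9 (A_73_110650) ranged from -1.24 to 0.84 in MSC with a median of -0.40, from -1.35 to 0.32 in PNCB with a median of -0.34, and from -4.29 to -2.01 in MFG with a median of -4.01. MSC and PNCB overlapped over most of their range, and every MFG array lay below every array of the other sources. Against MSC, S100A8 was 16.7-fold lower in MFG, a difference of -4.06 (SE 0.37, limma adjusted p = 3.2e-08) and 19.6-fold lower than in PNCB (-4.29, SE 0.37, adjusted p = 8.4e-10). S100A9 in MFG differed from MSC by -3.42 (SE 0.34, limma adjusted p = 8.0e-08), and from PNCB by -3.25, which is 9.53-fold lower (SE 0.34, adjusted p = 1.9e-08). All 8 goats had both genes lower in MFG than in either other source.

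S100A12 fell by more at its brighter probe. This probe (A_73_115208) ranged from -2.28 to 0.89 in MSC with a median of -0.78, from -2.05 to 0.27 in PNCB with a median of -0.59 (n = 7), and from -6.55 to -3.65 in MFG with a median of -5.73 (n = 7). Against MSC it was 29.1-fold lower in MFG, a difference of -4.86 (SE 0.50, limma adjusted p = 2.2e-07) that ranked 4 from the bottom of 27383 probes, and 31.0-fold lower than in PNCB (-4.96, SE 0.52, adjusted p = 4.1e-08). Its other tested probe (A_73_P050466) was 7.66-fold and 8.92-fold lower, so the sizes at both probes differed, although at each of them MFG overlapped with neither of the other sources. The remaining probe (A_73_P247181) was well above background on 2 MFG arrays alone and was not tested.

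Between MSC and PNCB none of the 4 tested S100 probes passed the test. The log2 differences were -0.23 for S100A8 (95% interval -0.99 to 0.53), 0.17 for S100A9 (-0.53 to 0.87), and -0.09 (-1.13 to 0.94) and -0.22 (-1.12 to 0.68) for S100A12. These intervals leave room for differences of up to about 1 on the log2 scale in either direction.

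On the MFG arrays the S100 reference signal was itself somewhat brighter. Cy3 alone differed between MFG and PNCB arrays at 38.2% of all tested probes, so such a shift is not particular to these genes. The Cy3 log2 difference between MFG and PNCB arrays was 0.62 for S100A8, 0.24 for the brighter S100A12 probe and 0.85 for its other tested probe. In Cy5 alone S100A8 was 13.8-fold and S100A12 at its brighter probe 17.1-fold lower in MFG than in PNCB. At the other S100A12 probe (A_73_P050466) Cy5 alone was 3.89-fold lower in MFG than in PNCB and 2.97-fold lower than in MSC (limma adjusted p = 0.000381 and 0.00444), smaller than the 8.92-fold and 7.66-fold of its ratio. Over 23 alternative settings the difference of S100A8 between MFG and MSC stayed between -5.63 and -3.65, that of S100A9 between -5.04 and -2.89 and that of S100A12 between -6.14 and -3.81, and all 3 passed the test in every one of them.

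One MFG array stood apart at the S100 genes. PWI goat 1 had -2.70 for S100A8, beside -5.28 to -4.52 in the other 7 goats, -2.01 for S100A9, beside -4.29 to -3.20, and -3.65 for S100A12, beside -6.55 to -5.00. This array lay 2.16, 1.94 and 2.24 above the mean of the other goats at these genes. At LTF it lay 0.08 above that mean and at CATHL2 0.12 above, so the array did not stand apart there. Without this array S100A8 was lower in MFG than in MSC by -4.34, S100A9 by -3.65 and S100A12 by -5.13.

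**Figure D3:**
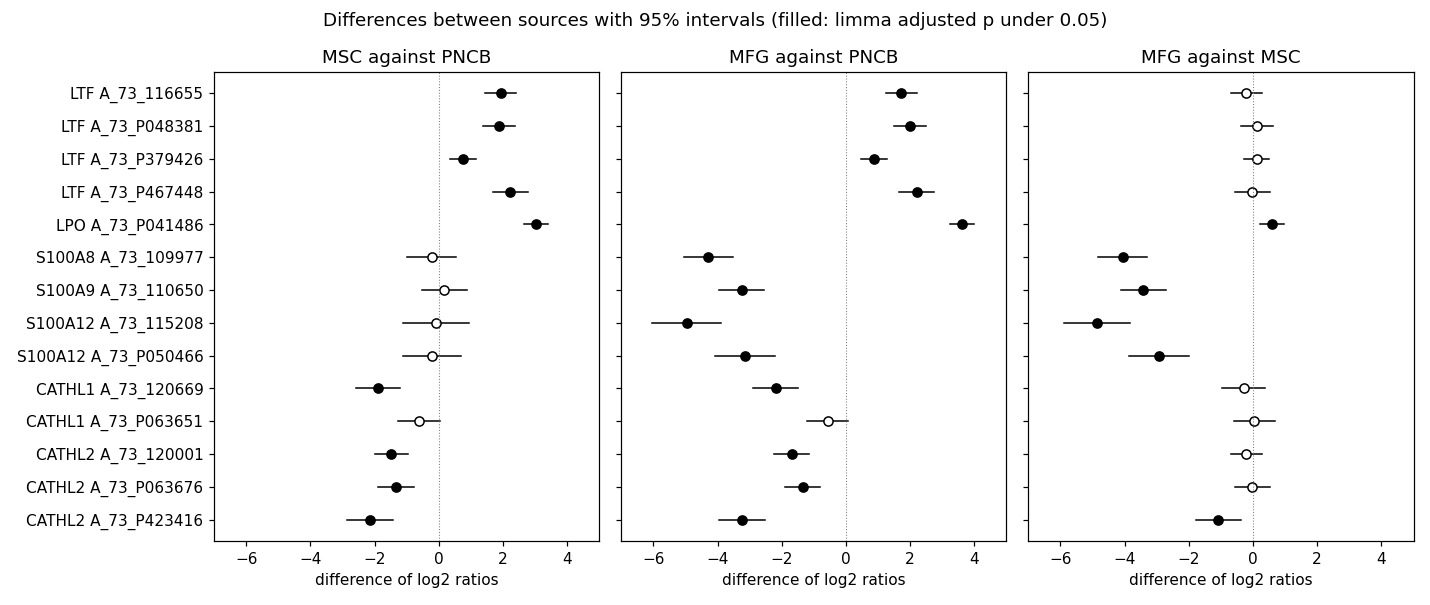
Difference of mean log2 ratios between sources (x axis) for the 14 tested member probes (y axis), with 95% intervals from limma, filled where the adjusted p was under 0.05. LTF and LPO lie right of 0 in both comparisons with PNCB, the S100 probes lie far left of 0 in both comparisons with MFG, and most cathelicidin probes lie left of 0 in comparisons with PNCB.

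CATHL2, a cathelicidin whose mature peptide is a proline-rich bactenecin in cattle, was lower in both milk sources than in blood. Its brightest probe (A_73_P063676) ranged from -2.91 to -2.31 in MSC with a median of -2.49, from -2.69 to 0.53 in PNCB with a median of -1.65 (n = 7), and from -2.89 to -2.05 in MFG with a median of -2.59. The milk arrays lay close together, while the blood arrays spread from that level up to the level of the reference. Relative to PNCB, CATHL2 was 2.52-fold lower in MSC, a difference of -1.33 (SE 0.27, limma adjusted p = 0.000275), and 2.55-fold lower in MFG than in PNCB (-1.35, SE 0.27, adjusted p = 0.000149), with the same direction in 7 of 7 goats measured. All 3 CATHL2 probes passed the test in both comparisons, and the other probes gave -1.48 and -2.16 for MSC and -1.70 and -3.24 for MFG (A_73_120001 and A_73_P423416).

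The size of these CATHL2 differences rests on 2 blood arrays. Without the PNCB arrays of PWI goats 1 and 2 the difference was -0.59 for MSC and -0.61 for MFG (limma adjusted p = 0.0369 and 0.0252). Within PFI goats alone, where no blood array reached the level of the reference, the difference between MSC and PNCB was -0.63 and did not pass the test (adjusted p = 0.0757). In Cy5 alone the difference between MFG and PNCB was -0.63 as well and was not called (adjusted p = 0.122). At A_73_120001 both calls were lost with outlier-flagged spots kept (-0.80, adjusted p = 0.126 for MSC, and -0.92, adjusted p = 0.0682 for MFG).

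CATHL1, known in cattle as the cyclic dodecapeptide bactenecin, gave an answer that depended on the probe. The brighter probe (A_73_P063651) was lower by -0.62 in MSC and by -0.57 in MFG than in PNCB and did not pass the test (limma adjusted p = 0.114 and 0.107). The dimmer probe (A_73_120669) was 3.73-fold lower in MSC, a difference of -1.90 (SE 0.34, limma adjusted p = 6.9e-05), and 4.55-fold lower in MFG (-2.19, SE 0.34, adjusted p = 7.3e-06). The brighter probe ranged from -2.27 to -1.33 in MSC, from -2.54 to 0.41 in PNCB and from -1.99 to -1.39 in MFG. The dimmer one ranged from -4.18 to -3.03, from -3.82 to 0.43 and from -4.06 to -3.45. Both have their highest blood values in PWI goats 1 and 2, and they differ in how far the milk arrays lie below the reference. Without the PNCB arrays of these goats the brighter probe differed by -0.10 for MSC and -0.06 for MFG. Over 24 alternative settings it passed the test in 7 for MSC, and over 25 in 5 for MFG. Without all arrays of PWI goat 4 it passed the test in both comparisons (-0.91, adjusted p = 0.0245, and -0.75, adjusted p = 0.0365). Cathelicidin precursors share a conserved region, and whether goat transcripts of other cathelicidins bind these cattle probes was not tested.

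Between MFG and MSC 1 of the 5 cathelicidin probes passed the test. CATHL2 at A_73_P423416 fell 2.12-fold in MFG (difference -1.08, SE 0.33, adjusted p by limma = 0.0149), with -6.00 to -5.26 in MFG and -5.03 to -4.27 in MSC and no overlap. It did not pass with outlier-flagged spots kept (-0.93, adjusted p = 0.133) or in Cy5 alone (-0.71, adjusted p = 0.146). The other CATHL2 probes gave -0.21 and -0.02 and the CATHL1 probes -0.29 and 0.04, and none of these passed. With median centring all 14 member probes passed as lower in MFG than in MSC, in place of 1 higher and 5 lower, and over all probes the share of calls that were higher moved from 36.3% to 4.70%. The share of all probes that passed under this centring is not given, so the count of 14 has no base. The median of all probes stood at -0.61 there. Relative to it LPO was at -0.02 and the LTF probe A_73_P379426 at 0.19, and the other members lay below it. The S100 probes and this CATHL2 probe thus passed as lower in MFG under both loess and median centring, and the other member probes did not pass in the same direction under both.

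CATHL4, the precursor of indolicidin in cattle, and DEFB1 stayed near background and were not tested. The single CATHL4 probe was well above background on 0 of 8 MSC, 1 of 8 PNCB and 0 of 8 MFG arrays, with ratios between -0.15 and 0.30 over all arrays. The 3 DEFB1 probes were well above background on 0 MSC arrays, on at most 2 PNCB arrays and on 2 or 3 MFG arrays, with ratios between -0.41 and 0.55. When all probes were fitted without this filter, DEFB1 was higher in MFG than in PNCB at A_73_P059556 by 0.31 and at A_73_120710 by 0.23 (limma adjusted p = 0.000221 and 0.00847), and did not pass at A_73_P100726 (0.07, 0.304). These signals lie close to background in every source and give no level.

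The goats differed widely at these genes within a source. The SD of S100A12 over the 8 goats in MSC was 1.21, larger than that of 99.9% of tested probes, whose median SD was 0.20. S100A8 and S100A9 had SDs of 0.86 and 0.84 in MSC, larger than those of 99.2% and 99.1% of probes. In PNCB the cathelicidins were among the most variable probes, with an SD of 1.63 at the dimmer CATHL1 probe and 1.34 at A_73_P423416 of CATHL2 (larger than 99.96% and 99.92% of probes), against a median of 0.30. In MFG the same CATHL1 probe had an SD of 0.17 and LPO one of 0.19, below the median of 0.25.

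Of the 9 pairs of S100 genes within a source, 6 varied together between goats, all 3 in MSC, 2 in PNCB and 1 in MFG. Over 63 pairs of members within sources, each gene was taken at its brightest tested probe. Pairs were tested by exact two-sided permutation over goats with Benjamini-Hochberg adjustment. By Pearson's r 8 passed at 0.05, and 4 of these also by Spearman's rho. In MSC, S100A8 and S100A9 had r = 0.962 and rho = 0.833 (exact p = 0.00198 and 0.0154, adjusted 0.0313 and 0.138), and r = 0.925 without the 2 goats farthest from the median. S100A8 and S100A12 had r = 0.930 and rho = 0.976 in MSC (exact p = 5.0e-05 and 0.000397, adjusted 0.00313 and 0.0125), and 0.837 without the farthest goats. At these probes PFI goats 2 and 3 were highest at all 3 S100 genes in MSC, at 0.68 and 0.39 for S100A8, while PFI goats 1 and 4 were lowest at S100A12. The other tested S100A12 probe ordered the goats differently. There PFI goat 2 had -0.05 in MSC, below PWI goat 2 (0.18) and PWI goat 4 (0.05). In PNCB, S100A8 and S100A9 had r = 0.958 and rho = 0.905 (exact p = 0.000372 and 0.00456, adjusted 0.00781 and 0.0575), and 0.890 without the farthest goats.

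Other S100 pairs rested more on single goats. S100A9 and S100A12 had r = 0.886 and rho = 0.857 in MSC (exact p = 0.00365 and 0.0107, adjusted 0.0383 and 0.113), which fell to 0.661 without the farthest goats. The same genes had r = 0.896 and rho = 0.964 in PNCB (n = 7, exact p = 0.00496 and 0.00278, adjusted 0.0437 for both), which fell to 0.433. In MFG, S100A8 and S100A12 had r = 0.941 and rho = 0.964 (n = 7, exact p = 0.00258 and 0.00278, adjusted 0.0325 and 0.0437), and 0.789 without the farthest goats, of which PWI goat 1 is the one that stands apart. The 3 S100 pairs that did not pass were S100A8 with S100A12 in PNCB (r = 0.822, rho = 0.750, n = 7, exact p = 0.0244 and 0.0663, adjusted 0.154 and 0.291), which fell to 0.255 without the farthest goats, and S100A9 with S100A8 and with S100A12 in MFG (r = 0.794 and 0.661, rho = 0.357 and 0.286, adjusted p of r 0.327 for both by exact permutation). In MFG, PWI goat 2 was lowest at S100A8 (-5.28) and second to PWI goat 1 at S100A9 (-3.20). Both genes of a pair share an array and its reference, and each breed of a source lies on 1 slide. With each breed's mean taken out, the 6 S100 correlations that passed lay between 0.893 and 0.976.

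Among pairs with a cathelicidin, 1 passed in PNCB, 1 in MSC and 0 in MFG, and the correlations were not tested against each other between sources. In PNCB, CATHL1 and CATHL2 had r = 0.955 and rho = 0.886 over 6 goats (exact p = 0.00556 and 0.0333, adjusted 0.0437 and 0.215), and 0.958 without the 2 farthest. In the same source LTF and CATHL2 had r = 0.930 and rho = 0.786 (n = 7, exact p = 0.00794 and 0.0480, adjusted 0.0556 and 0.252), which fell to 0.383 without the 2 farthest, so this relation did not pass and rests on those goats. PWI goats 1 and 2 were highest in blood at LTF, CATHL1 and CATHL2 alike, and at S100A8 they stood at -0.75 and 0.11, within the range of the others. In MSC, CATHL1 followed LPO, with r = 0.978 and rho = 1 over 7 goats (exact p = 0.000198 and 0.000397, adjusted 0.00625 and 0.0125), 0.9996 without the 2 farthest, and 0.982 with breed means taken out. PWI goat 4 and PFI goat 1 were highest at both genes there, and PFI goats 2 and 3, the goats highest at the brightest S100 probes, were lowest. Between LPO and the S100 genes in MSC r lay between -0.692 and -0.583 (exact p = 0.0632 to 0.129, adjusted 0.278 to 0.354), which did not pass.

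**Figure D4:**
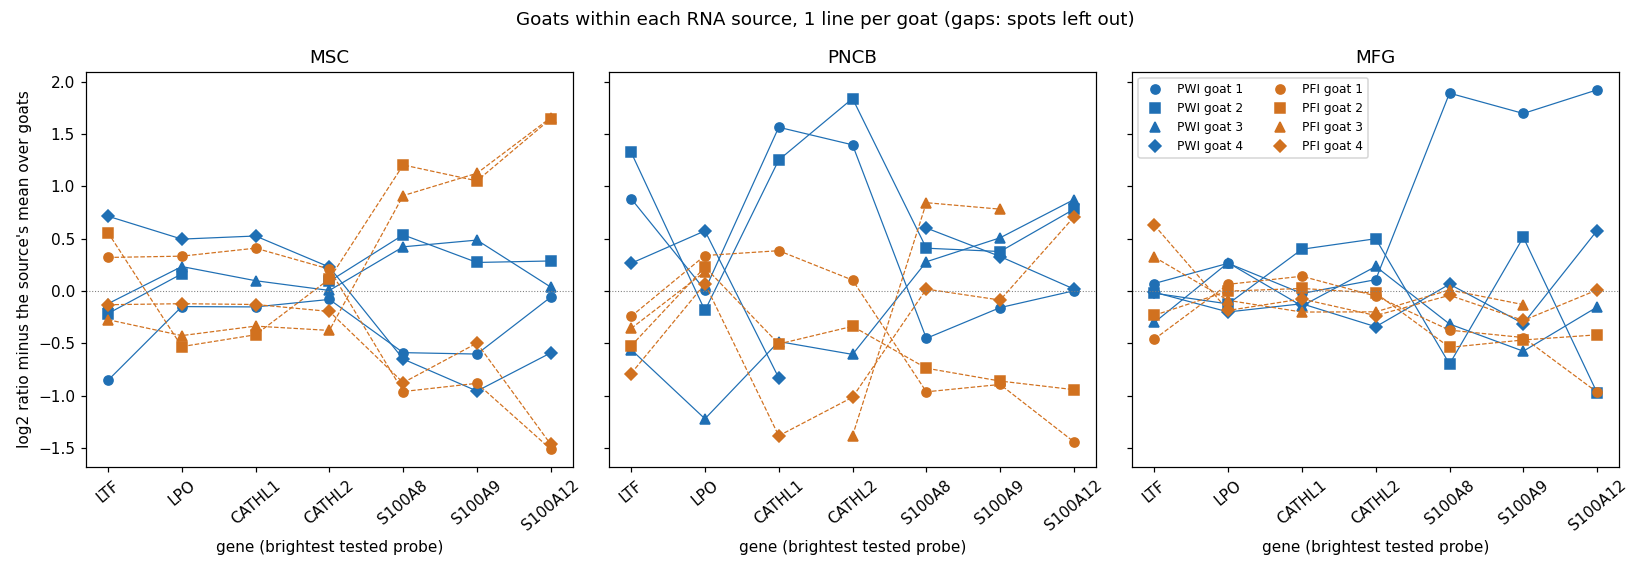
Log2 ratio minus the mean of its source (y axis) for the brightest tested probe of 7 genes (x axis) in MSC, PNCB and MFG, with 1 line per goat, solid for PWI and broken for PFI. PFI goats 2 and 3 are highest in MSC at the 3 S100 genes, PWI goats 1 and 2 are highest in PNCB at LTF and the cathelicidins, and PWI goat 1 is highest in MFG at the S100 genes.

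No relation of a gene between sources of the same goats passed the test. Over 21 relations of a gene between 2 sources of the same goats, r lay between -0.601 for LPO and 0.774 for CATHL2, both between MFG and PNCB, and none passed after adjustment. The CATHL2 relation had rho = 0.714 (n = 7, exact p = 0.0413 and 0.0881, adjusted 0.849 and 0.936), and r = 0.938 without the 2 farthest goats. S100A8 had r = 0.254 between MSC and PNCB and -0.390 between MFG and MSC (n = 8, exact p = 0.531 and 0.388, adjusted 0.996 for both). With 6 to 8 goats these tests leave wide room.

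Between the breeds no member probe passed the test in any source. In MSC 0 of 14 members passed (0% of all probes), and 0 had an unadjusted p under 0.05 (4.38% of all probes). In MFG 0 passed (0.0146% of all probes), and 0 had an unadjusted p under 0.05 (8.58% of all probes). In PNCB 0 passed as well (0.0109% of all probes), but 7 of 14 had an unadjusted p under 0.05, beside 3.56% of all probes, and 13 of 14 were higher in PWI. The 7 were the 4 LTF probes, the dimmer CATHL1 probe and 2 CATHL2 probes. Probes of a gene read the same transcript on the same arrays, so these 7 are not separate results. PWI exceeded PFI by 0.96 at the brightest LTF probe (SE 0.35), by 2.18 at that CATHL1 probe (SE 0.71) and by 1.53 at the brightest CATHL2 probe (SE 0.57), each with a limma adjusted p of 0.972. At that CATHL1 probe the spot of PWI goat 4 was left out. The brighter CATHL1 probe, where PWI goat 4 had -1.98 and PFI goat 3 was left out, gave 0.88 (SE 0.63, limma unadjusted p = 0.196).

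At most LTF and cathelicidin probes this pattern in blood rests largely on 2 of the 4 PWI goats. At LTF the PWI values were -0.17, 0.27, -1.62 and -0.79 for goats 1 to 4, and the PFI values lay between -1.84 and -1.30. At CATHL2 they were 0.09, 0.53 and -1.92 for goats 1 to 3, with the spot of goat 4 left out, and the PFI values lay between -2.69 and -1.21. Goat 3 lay within the PFI range at both genes. Without the PNCB arrays of PWI goats 1 and 2, 1 of 13 member probes kept an unadjusted p under 0.05, an LTF probe. CATHL2 at A_73_120001 could not be tested there, as its spots on the arrays of PWI goats 3 and 4 were left out by their flags. In the same setting LTF differed by 0.33 and CATHL2 by 0.05 at their brightest probes. Still, 11 of these 13 probes were higher in PWI, while LPO and the brighter CATHL1 probe were lower. The 4 S100 probes differed by 0.65 to 1.31 there, beside 0.42 to 0.98 on all 8 arrays. Without the PNCB arrays of PWI goats 3 and 4, which had a dim reference, 9 of 14 had an unadjusted p under 0.05, and LTF differed by 1.58 (limma adjusted p = 0.128). The 3.56% of all probes refers to all 8 arrays. No such share is given for either reduced set, so their counts cannot be called particular to the members. As each breed of a source has a slide to itself, breed and slide cannot be told apart here.

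Taken over the 3 sources of each goat, 0 members passed (0.00366% of all probes), and 4 had an unadjusted p under 0.05 (6.23% of all probes): S100A12 at 0.71, the dimmer CATHL1 probe at 0.78 and CATHL2 at 0.72 and 0.67, all higher in PWI (limma adjusted p = 0.782 to 0.795). A goat with a spot left out in any source gave no mean at that probe. PFI goat 3 is thus missing for S100A12, and PWI goat 4 for the CATHL1 probe and the CATHL2 probe at 0.67. The CATHL2 probe at 0.72 (A_73_120001) compares PWI goats 1 and 2 with PFI goats 1, 2 and 4 alone. For the difference of the breed effect between sources, 0 members passed the F-test (0.0146% of all probes) and 6 had an unadjusted p under 0.05 (6.13% of all probes). These were 3 LTF, 1 CATHL1 and 2 CATHL2 probes. The lowest was CATHL2 at A_73_120001, where PWI exceeded PFI by 2.05 in blood, by 0.18 in MSC and by 0.25 in MFG (limma adjusted p = 0.612). The blood mean of PWI at this probe is that of goats 1 and 2 alone, the other 2 spots being left out.

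By Pearson correlation over 24 arrays, among 11550 probes with all values, the transcripts most like LTF were NM_001114515 (r = 0.859) and NM_174022 (r = 0.852). Their means were 3.49 and 0.59 in MSC, -0.19 and -0.11 in PNCB and 3.60 and 0.54 in MFG. Those most like S100A8 were NM_174603 (r = 0.976) and NM_001109980 (r = 0.975), with means of -0.16 and 0.03 in MSC, -0.24 and 0.33 in PNCB and -3.65 and -2.74 in MFG. The likeness to S100A8 held within MSC (r = 0.771 and 0.920) and within MFG (0.958 and 0.969), and was weaker within PNCB (0.625 and 0.240). The likeness to LTF came mainly from the step between milk and blood, since within sources r lay between -0.410 and 0.675. The files give no names for these transcripts, and the 24 arrays share their reference.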

How the data were processed

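The members and the lists of genes were chosen with earlier results of these data known. The deposited scanner files hold median spot and background intensity in both channels, not normalized, which the authors read, per the file headers, with version 10.7.3.1 of Agilent Feature Extraction. In the authors' deposited table each value is a log10 ratio, Cy5 over Cy3, that does not differ from that of the scanner software (largest difference 0). The 0 or 1 flags per spot are another score of the software, per the file headers.

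Here, with R 4.3.3 and limma 3.58.1, spots with an outlier flag were left out (1.84% to 21.1% of an array, 15 of 336 values of the tested members), background was corrected with normexp (offset 50), ratios were normalized by loess within arrays, and spots of a probe were averaged. Saturated spots numbered 0. Tested probes are those whose Cy5 signal passed the software's background test on each of the 4 arrays of any group. Sources were compared in 1 limma fit of 6 group means on 24 arrays, breeds on 8 arrays per source, on goat means and as an F-test with source. Fits were tested on simulated data. A gene is represented by its brightest tested probe, and transcripts like LTF and S100A8 are the 2 of highest correlation outside the set. Precision is limited by the number of arrays. In fits of arrays, p-values rest on the spread within a group, where goat and array vary together on 1 slide. They hold no spread between slides or scan days. The main fit of sources does not pair the arrays of a goat.

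The same goats gave all sources, per the labels. Deviations of same-numbered arrays from their group means correlated between -0.267 and 0.317, over 0.1 in 9 of 24 pairs. The accessions matched 0 of 26748 entries to the goat gene table, so lists by symbol of other defence genes and of cell type markers were not used here. Alternatives were flags kept, no background correction, median centring, the deposited ratios, Cy5 alone, other filters, array weights, blocks, single breeds and goats left out. Sets of arrays left out were chosen after seeing the data.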

Additional observations from a re-analysis of the deposited data

Results flagged for a closer look

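In 58 groups of 8 arrays or goats looked at, 2 values lay farther from the rest than the spread of their group allows, beside 2.9 that chance gives. LPO in PNCB of PWI goat 3 was -1.35, beside -0.32 to 0.44 in the other 7 goats. This array had few probes with Cy3 well above background (20.4%). At LPO, though, its normalised log2 Cy3 was 8.12, the highest of the PNCB arrays, and its log2 Cy5 was 6.94, the lowest. The cause was not tested. S100A8 in MFG of PWI goat 1 was -2.70, beside -5.28 to -4.52 in the other 7 goats.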

How the results depend on the processing

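Of 161 counts of member calls under alternatives, 159 stayed within 1.5 times the reported count. The exceptions were MFG against MSC with median centring (14 calls, all lower, in place of 6) and breed by source with array weights (3 in place of 0). For neither of these is the share of all probes that passed given. Without a goat in turn, calls numbered 9 to 10 for MSC against PNCB, 13 to 14 for MFG against PNCB, 4 to 6 for MFG against MSC and 0 for breed. The replicate block on goats left these counts at 9, 13, 6 and 0. Without the filter on dim probes they were 9, 16 and 7 of 20. Of 504 gene differences, 456 kept direction and side of the threshold, 7 became weaker and 14 stronger.

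In the main fit the 27 reversed differences were small and had not passed the test, except LPO for MFG against MSC (-0.63 with median centring). Among the reversed values, that of CATHL1 for MFG against MSC with median centring passed as well (limma adjusted p = 0.00171). For CATHL2, MFG against MSC was 0.046 with flagged spots kept, 0.045 with the deposited ratios, 0.83 with Cy5 alone, 0.018 with array weights and 0.045 within PWI. Without a goat it ranged from -0.076 to 0.087. For CATHL1 it was -1.27 with median centring, -0.060 with the replicate block, -0.066 within PWI, -0.018 without arrays of low spike-in slope, -0.027 over all probes and -0.025 to 0.161 without a goat. LTF was 0.020 over all probes. For MSC against PNCB, S100A9 was -0.21 with median centring, -0.29 within PWI and -0.071 to 0.316 without a goat. S100A8 was 0.014 with array weights and 0.051 within PFI. S100A12 was 0.12 with the deposited ratios, 0.081 with array weights, 0.48 within PFI, 0.11 without arrays of low spike-in slope and -0.45 to 0.48 without a goat. The cause was not tested.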
